A study of Mus musculus with 6 samples.

Results

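Granins and neuropeptides are cargo of the regulated secretory pathway, and 8 genes of this kind were followed: the neuropeptide precursors Npvf, Npy and Penk, and the granins Chga, Chgb, Scg2, Scg3 and Scg5. Every non-control probe whose accession maps to one of these symbols was taken, which gave 8 of the 17305 genes named on the array, with 9 of its 41174 non-control probes. Npvf and Chgb were selected on their log2 differences between Ro and control, because they were much lower after treatment with Ro, so all their values are given here as a description with no test. The other 6 were taken for their function, with results of these data known. All 9 probes were well above background on all 6 arrays, and 1 probe per gene entered the test.

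The samples are primary astrocyte cultures from cortex and striatum of wild-type C57BL/6J mice at postnatal day 1, grown with 10% serum and all exposed to 5 µM of the DNA synthesis inhibitor AraC for 2 days. Ro cultures received 1 µM Ro3303544, a small-molecule inhibitor of the kinase GSK-3, for 48 h from 13 days in vitro. Washout cultures had the same treatment and then 48 h without the inhibitor. Control cultures were kept in medium, with DMSO at the matching concentration per the treatment protocol. Ro cultures were thus harvested at 15 days in vitro and washout cultures at 17. The control titles give no duration, and harvest at 15 days together with Ro was assumed here. Under that assumption no control had the age of the washout cultures. Each group had 2 one-colour arrays, and the labels do not say whether these came from separate preparations, so that the p-values measure only the spread between these samples.

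Between 60.4% and 65.2% of probes were well above background on an array. Control and Ro arrays shared a slide, and both washout arrays were on a separate one, which means that effects of slide and of washout cannot be told apart. The number of arrays limits the precision. With 2 arrays in each group the smallest two-sided p of an exact permutation test is 0.333, and every call therefore rests on the spread that limma pools over genes. The response to the inhibitor was visible in all 4 Wnt target genes examined: Axin2, Lef1, Nkd1 and Sp5 rose in Ro by 4.29 to 8.23 on the log2 scale. All 10 astrocyte markers were well above background in at least 1 group, and 3 rose and 6 fell in Ro. Over all features, limma called 19.4% higher and 22.7% lower in Ro against control. Gjb6, a connexin, rose by 3.45 (limma adjusted p = 0.000199), Aqp4, a water channel, fell by 1.86 (adjusted p = 0.000878), and Slc1a3, a glutamate transporter, was the 1 not called (0.06, adjusted p = 0.68). Their levels, summed per array in units of the 75th percentile, were 193 and 183 in control, 131 and 139 in Ro, and 192 and 181 in washout. In such a sum the brightest probes weigh most.

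Neuropeptides are made as long precursors, packed into dense-core granules, cut at basic residues by prohormone convertases and released when calcium rises. Granins are acidic proteins that help to form these granules and are themselves cut into peptides. Astrocytes hold fewer such granules than neurons and endocrine cells, but granins and the precursors of NPY and enkephalin are known astrocyte products. Many genes of this class carry a cAMP response element (CRE) close to their start, a site bound by factors of the CREB family.

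Promoters are shown for Npvf and Chgb, the pair with the largest differences of the 8, and for Chga, Scg2 and Npy, granule cargo genes of which Chga fell less in Ro, Npy rose and Scg2 passed no test. RefSeq (GRCm38.p6) gave promoters for 7 of the 8 genes and none was matched for Penk. Each line holds the 250 bases before the annotated start, 5′ to 3′ on the gene's strand. Capitals mark the CRE (TGACGTCA), its half-site (TGACG), or the TCF/LEF motif CTTTGAA, the sequence type read by the factors that partner beta-catenin, each on either strand.
Npvf, chr6:50654446-50654695, - strand: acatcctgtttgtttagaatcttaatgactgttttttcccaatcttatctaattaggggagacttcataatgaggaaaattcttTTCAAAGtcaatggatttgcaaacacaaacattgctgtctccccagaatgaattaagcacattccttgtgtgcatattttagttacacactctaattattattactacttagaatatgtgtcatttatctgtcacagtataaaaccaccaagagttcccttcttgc
Chgb, chr2:132781392-132781641, + strand: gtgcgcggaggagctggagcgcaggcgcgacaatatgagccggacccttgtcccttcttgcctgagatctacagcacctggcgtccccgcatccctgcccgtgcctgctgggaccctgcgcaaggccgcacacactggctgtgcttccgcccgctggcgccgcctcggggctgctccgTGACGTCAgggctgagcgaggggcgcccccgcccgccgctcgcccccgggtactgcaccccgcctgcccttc
Chga, chr12:102554691-102554940, + strand: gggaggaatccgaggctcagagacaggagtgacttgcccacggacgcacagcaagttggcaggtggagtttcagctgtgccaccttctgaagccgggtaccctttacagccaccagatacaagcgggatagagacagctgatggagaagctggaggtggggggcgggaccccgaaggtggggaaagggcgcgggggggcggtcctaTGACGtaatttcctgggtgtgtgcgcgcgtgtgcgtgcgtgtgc
Scg2, chr1:79440027-79440276, - strand: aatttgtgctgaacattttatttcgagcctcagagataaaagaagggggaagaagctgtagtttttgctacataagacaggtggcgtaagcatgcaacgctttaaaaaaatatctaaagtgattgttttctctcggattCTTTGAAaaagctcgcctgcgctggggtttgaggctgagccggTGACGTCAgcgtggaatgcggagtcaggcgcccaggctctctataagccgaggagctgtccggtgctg
Npy, chr6:49822460-49822709, + strand: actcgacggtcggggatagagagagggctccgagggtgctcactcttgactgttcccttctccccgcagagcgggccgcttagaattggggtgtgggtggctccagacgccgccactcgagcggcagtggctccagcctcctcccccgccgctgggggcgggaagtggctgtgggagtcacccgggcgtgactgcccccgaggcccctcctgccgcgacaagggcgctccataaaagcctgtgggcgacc

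Chgb and Scg2 each held a full CRE, from -72 to -65 and from -68 to -61 relative to the start. This motif was present in 1.55% of the 32851 RefSeq promoter windows of the same length. A full CRE contains a half-site on each strand. Chga, Scg3 and Scg5 held a single half-site, starting at -44, -30 and -175, and 17.8% of all windows held at least 1. The letters CTTTGAA were found in Npvf from -166 to -160 on the opposite strand and in Scg2 from -111 to -105, against 4.46% of all windows. The related letters CTTTGAT, found in 3.21% of all windows, were in none of the 7. Npvf alone among the 7 held the TATA box letters TATAAA, at -29, found in 12.4% of windows, and none of the motifs searched was in Npy. These matches are descriptions of the letters.

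**Figure D1:**
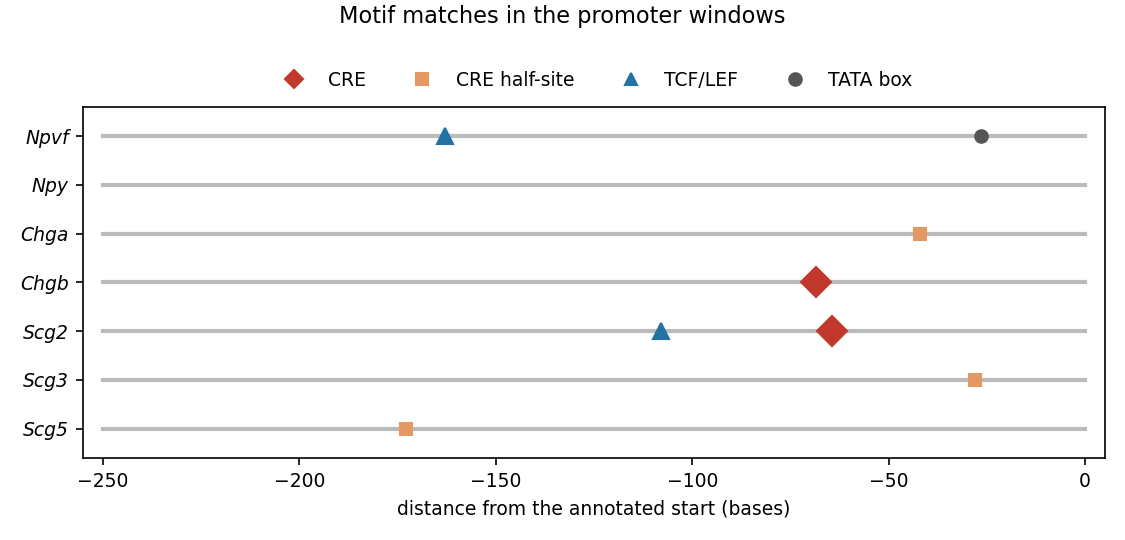
Matches to the CRE, its half-site, the TCF/LEF motif CTTTGAA and the TATA box in the promoter windows of 7 genes; the x axis is the distance from the annotated start in bases, and each grey line is 1 window of 250 bases. The full CRE lies at nearly the same distance in Chgb (-72) and Scg2 (-68), with half-sites inside a full CRE not drawn.

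Levels are given as log2 of the processed intensity relative to the array's 75th percentile, so that 0 is the brightness of a probe at that percentile. Brightness depends on the probe, and levels are compared only between groups for the same probe.

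Npvf encodes the precursor of the RFamide-related peptides, known from the hypothalamus as regulators of reproduction. Its level was -0.55 and -0.48 on the control arrays, -4.99 and -4.74 on the Ro arrays, and -1.20 and -1.39 on the washout arrays. The groups did not overlap, with Ro far below both others and washout between. In Ro the mean was 4.35 ± 0.12 (standard error from limma, 2 arrays per group) below control on the log2 scale, or 4.92% of the control level. After washout it stood 3.56 ± 0.12 above Ro and 0.78 ± 0.12 below control, at 58.1% of the control level. The processed intensity in Ro was 25.4 and 29.3, close to the lowest signals called well above background on those arrays, 18.1 and 22.2. The size of the difference depended on the background correction: with a normexp correction of the median signal, which adds an offset of 50 to every value, it was -2.73 in place of -4.35. The difference between washout and Ro was then 2.05.

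Npy, neuropeptide Y, is a peptide of inhibitory neurons and of sympathetic nerves. It lay at -3.17 and -3.14 in control, -2.07 and -1.91 in Ro, and -2.07 and -2.27 in washout. Both treated groups were above control on every array and overlapped each other. Npy rose in Ro by 1.17 ± 0.10 (2.24-fold, limma adjusted p = 0.00121). In washout it was 0.99 ± 0.10 above control (1.98-fold, adjusted p = 0.0123), and washout and Ro differed by -0.18 ± 0.10 (adjusted p = 0.223). With the normexp correction Npy was only 0.71 above control in Ro and 0.57 above control in washout. The call of washout against control was lost with no filter on dim probes (adjusted p = 0.061). It was also lost when either control array was left out, with differences of 0.97 without control 1 and 1.01 without control 2.

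Penk, proenkephalin, is the precursor of the enkephalins, opioid peptides abundant in the striatum. Its brighter probe gave -1.38 and -1.48 in control, -0.76 and -0.75 in Ro, and -0.40 and -0.58 in washout. The 3 groups did not overlap, in the order control, Ro, washout. Penk rose in Ro by 0.67 ± 0.09 (1.6-fold, limma adjusted p = 0.0043) and was 0.95 ± 0.09 above control in washout (1.93-fold, adjusted p = 0.0106). Washout and Ro differed by 0.27 ± 0.09 (adjusted p = 0.0662), which passed the threshold with an intensity trend in the variance (adjusted p = 0.0454) and without washout 2 (adjusted p = 0.0424). The call of washout against control was lost without control 2 (adjusted p = 0.0665) and with no filter on dim probes (adjusted p = 0.0565).

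A second, much dimmer Penk probe gave -5.19 and -5.06 in control, -4.40 and -4.00 in Ro, and -4.19 and -4.51 in washout. It also separated control from both treated groups, but put washout and Ro in the same range. With every probe tested on its own, this probe rose in Ro by 0.92 ± 0.18 (limma adjusted p = 0.0135), and its difference between washout and control was 0.78 ± 0.18 (adjusted p = 0.0639). The probes differed in sign between washout and Ro, 0.27 on the brighter and -0.15 on the dimmer (adjusted p = 0.0708 and 0.542).

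**Figure D2:**
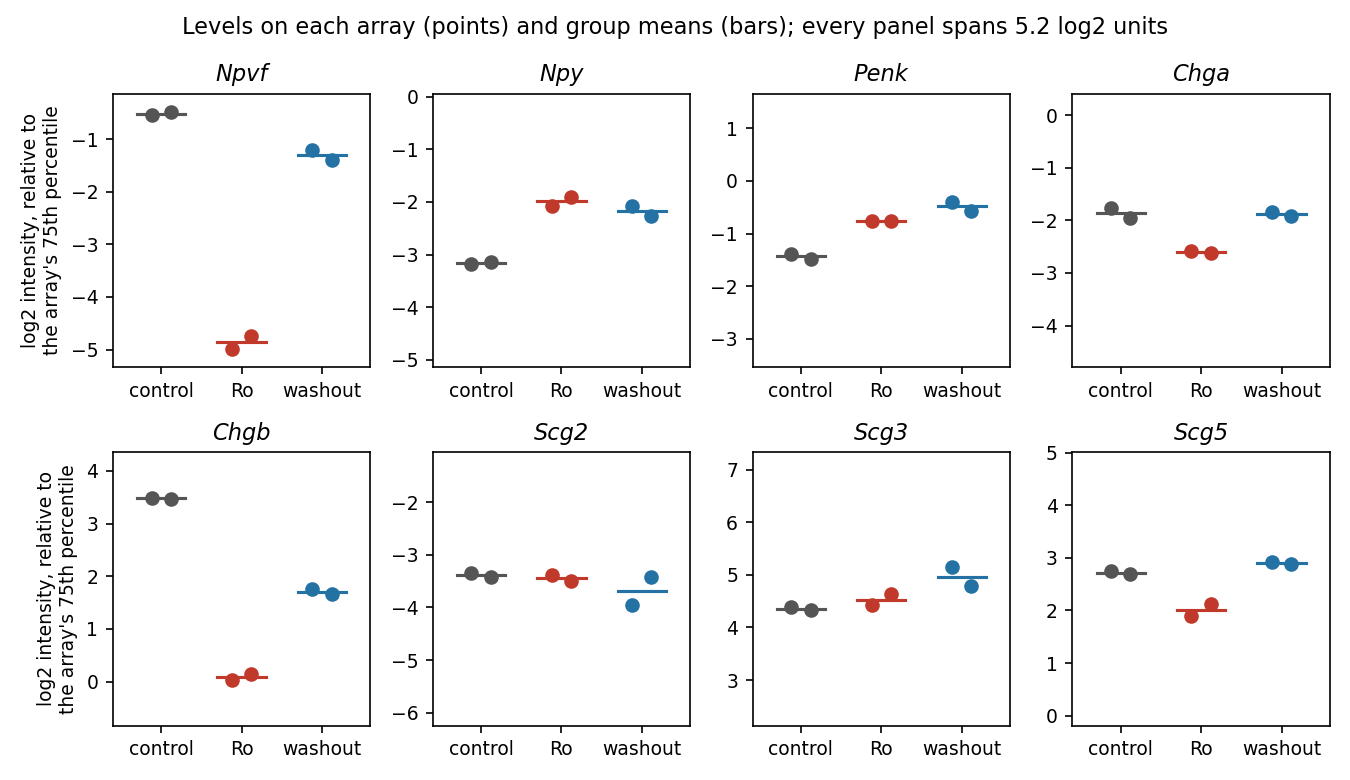
Level of each gene on each of the 6 arrays (points) with the group mean (bar); the y axis is log2 intensity relative to the array's 75th percentile, and all panels span the same number of units. Npvf and Chgb are lowest in Ro and between the other groups in washout, Npy and Penk are above control in both treated groups, and Chga and Scg5 are lowest in Ro.

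Chgb, chromogranin B, is a core granin that promotes granule formation. It lay at 3.50 and 3.47 in control, 0.03 and 0.14 in Ro, and 1.76 and 1.66 in washout. The groups did not overlap, and washout lay about midway between Ro and control on this scale. The Ro mean was 3.40 ± 0.08 below control, at 9.45% of the control level. The washout mean was 1.63 ± 0.08 above Ro and 1.78 ± 0.08 below control, at 29.2% of the control level. On the log2 scale 47.8% of the difference had been regained in washout, against 82.0% for Npvf.

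The Chgb probe was printed at 10 places on each array, which gives its technical spread. The processed intensity of its spots ranged from 8155 to 8801 on control 1 and from 6639 to 7146 on control 2. On Ro 1 and Ro 2 the ranges were 775 to 876 and 824 to 895, and on washout 1 and washout 2 they were 2498 to 2683 and 2329 to 2643. The coefficient of variation between spots of an array was 2.15% to 3.75%. These ranges and coefficients cover all 10 spots, among them 1 on control 2 that was marked as an outlier and left out of the level of that array. All spots of the Ro arrays lay below all spots of the washout arrays, and those below all spots of the control arrays.

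**Figure D3:**
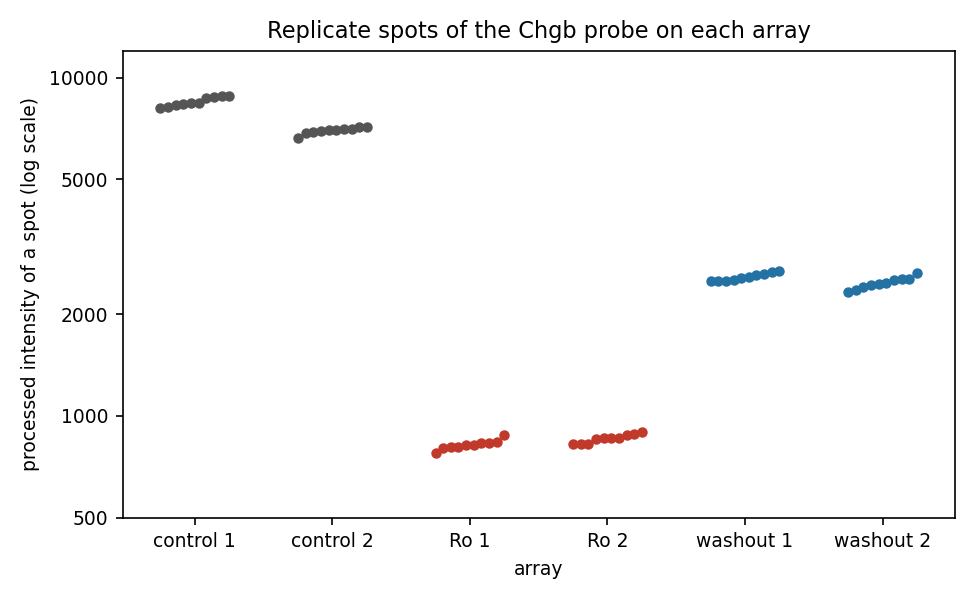
Processed intensity (log scale, before scaling between arrays) of the 10 spots of the Chgb probe on each of the 6 arrays, sorted within an array. The spots of an array lie within a narrow band, from 775 to 895 on the Ro arrays and from 6639 to 8801 on the control arrays.

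Chga, chromogranin A, is the related core granin and the precursor of peptides such as vasostatin and catestatin. Its level was -1.76 and -1.96 in control, -2.58 and -2.61 in Ro, and -1.83 and -1.92 in washout. The Ro arrays were below all others, while washout and control overlapped. Chga fell in Ro by 0.73 ± 0.09 (to 60.1% of control, limma adjusted p = 0.00354) and was 0.72 ± 0.09 higher in washout than in Ro (adjusted p = 0.00363). Washout and control differed by -0.01 ± 0.09 (adjusted p = 0.957).

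Scg5 encodes 7B2, a granin-like chaperone needed to make active prohormone convertase Pcsk2. It lay at 2.74 and 2.70 in control, 1.90 and 2.11 in Ro, and 2.92 and 2.88 in washout. It fell in Ro by 0.72 ± 0.10 (to 60.9% of control, limma adjusted p = 0.00411) and was 0.90 ± 0.10 higher in washout than in Ro (adjusted p = 0.00196). The washout arrays were above both control arrays, but the difference of 0.18 ± 0.10 did not pass the test (adjusted p = 0.282).

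Scg3, secretogranin III, tethers granin aggregates to the granule membrane. Its level was 4.38 and 4.33 in control, 4.42 and 4.63 in Ro, and 5.14 and 4.78 in washout. Washout was highest on both arrays, but the arrays of that group were 0.36 apart. No difference passed the test: 0.17 ± 0.15 for Ro against control (limma adjusted p = 0.388), 0.44 ± 0.15 for washout against Ro (adjusted p = 0.0663) and 0.61 ± 0.15 for washout against control (adjusted p = 0.0667). Both washout differences lay near the threshold and passed it under 6 of the 19 alternatives, among them quantile normalization (adjusted p = 0.0312 and 0.0413). The Scg3 spot lay in a region of a slide where dim spots were raised, at a processed intensity of 12665 to 26892, and no other of the 8 genes was measured there. Such regions held 4.45% of spots on washout 1, 0.756% on washout 2, 0.0576% on Ro 2 and none on the other arrays.

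Scg2, secretogranin II, is the precursor of secretoneurin. It lay at -3.35 and -3.42 in control, -3.38 and -3.50 in Ro, and -3.95 and -3.43 in washout. Control and Ro overlapped, and washout 1 stood 0.52 below washout 2. The differences did not pass the test: -0.06 ± 0.18 for Ro against control (limma adjusted p = 0.808), -0.25 ± 0.18 for washout against Ro (adjusted p = 0.322) and -0.31 ± 0.18 for washout against control (adjusted p = 0.331). Washout against Ro passed without washout 2, at -0.50 (adjusted p = 0.0248), and was 0.01 without washout 1 (adjusted p = 0.939), so that it rests on 1 array.

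**Figure D4:**
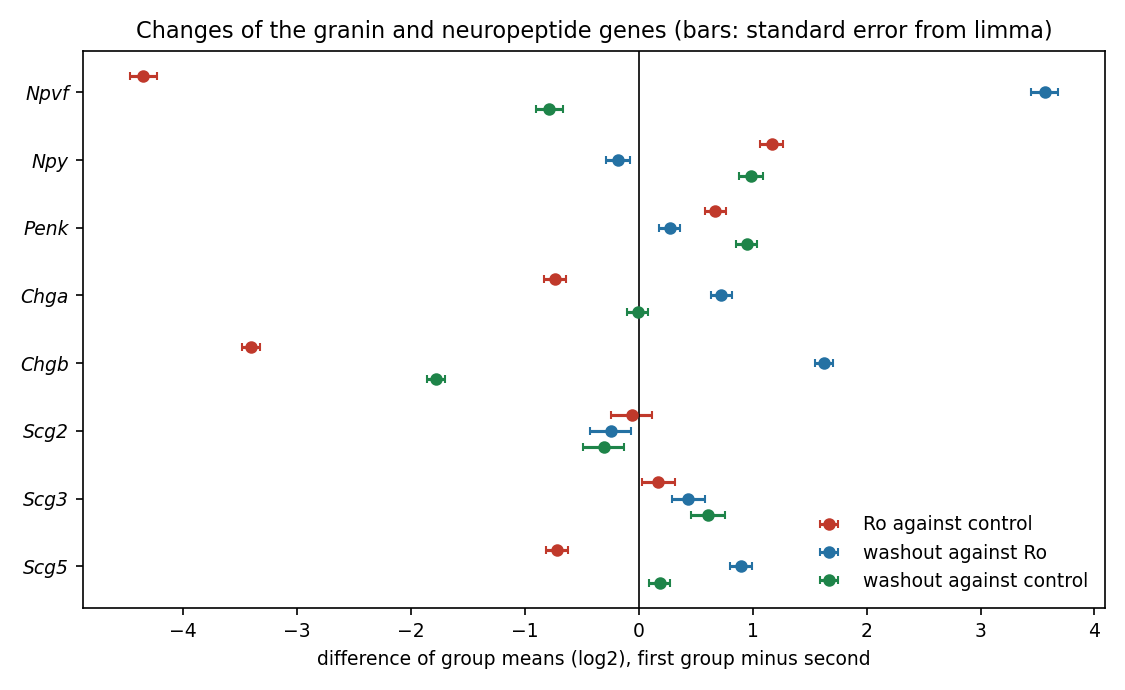
Difference of group means (log2, first group minus second) of the 8 genes in the 3 comparisons, with the standard error from limma as a bar. Npvf (-4.35) and Chgb (-3.40) lie far to the left in Ro against control, and the points of Scg2 lie within 0.31 of 0 in all 3 comparisons.

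Of the 6 genes not picked for their values, 2 rose and 2 fell in Ro against control, where limma called 42.1% of the 20091 features tested, 19.4% as higher and 22.7% as lower. Their median difference was 0.06, against 0.00 over all features. In washout against Ro 2 rose and none fell (none was lower at an unadjusted p under 0.05 either), beside 41.5% of features called (21.4% higher and 20.1% lower), with a median of 0.35 against -0.02. In washout against control 2 rose and none fell, again also unadjusted, beside 10.1% called (4.13% higher and 5.97% lower), with a median of 0.40 against -0.01. The comparisons share arrays, so that the counts are not independent of each other. Within the granins, Chga and Scg5 were back at or above control in washout by their means, while Chgb was not. Both neuropeptides that rose in Ro, Npy and Penk, stayed above control in washout.

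Pcsk1n, the granin-like precursor proSAAS and an inhibitor of convertase Pcsk1, was the only listed granin relative with a named probe. It fell in Ro by 0.67 (limma adjusted p = 0.0092), was 0.68 higher in washout than in Ro (adjusted p = 0.0086) and differed from control in washout by 0.01 (adjusted p = 0.96). Those values stand close to the ones of Chga and Scg5.

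Among 6 measured enzymes of peptide processing, 2 rose and 1 fell in Ro. For this and the other lists, 19.4% of all features were called higher and 22.7% lower in the same comparison. Pam, which amidates the end of many neuropeptides, rose by 1.35 (limma adjusted p = 0.001) and differed from control in washout by 0.00 (adjusted p = 0.98). Cpe, the carboxypeptidase that trims basic residues, rose by 1.25 (adjusted p = 0.00046) and was still 0.78 above control in washout (adjusted p = 0.012). Cpd, a related carboxypeptidase of the Golgi, fell by 0.46 (adjusted p = 0.014). Qpct, which forms the pyroglutamate end of some peptides, was 0.45 lower in washout than in control (adjusted p = 0.038). Pcsk2, the convertase that Scg5 assists, differed between Ro and control by 0.11 (adjusted p = 0.31), and Pcsk1 was not well above background on any array. The list median in Ro against control was 0.02.

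Of 15 measured genes of granule traffic and release, 2 rose and 4 fell in Ro, with a median of -0.02. This is near the 42.1% called over all features. Cadps, which primes dense-core granules for release, rose by 4.33 (limma adjusted p = 4.8e-05), from processed intensities of 415 and 303 in control to 8569 and 7855 in Ro. In washout it was 0.58 above control (adjusted p = 0.029). Its relative Cadps2 differed between Ro and control by 0.14 (adjusted p = 0.3) and was 0.58 lower in washout than in Ro (adjusted p = 0.0074). Hid1, a Golgi protein of granule formation, fell in Ro by 1.08 (adjusted p = 0.0023), and the granule GTPase Rab27b fell by 0.74 (adjusted p = 0.005). Snap25, the neuronal SNARE protein, and Ptprn2 were not well above background on any array.

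Other neuropeptides and peptide hormones went both ways, with 5 of 20 measured genes higher and 5 lower in Ro and a median of 0.01. Over all features 19.4% were called higher and 22.7% lower. Of the 5 higher, Adcyap1, Kiss1 and Pmch passed the filter on dim probes only through Ro. Of the 5 lower, Pnoc passed it only through control. The calls of these genes are therefore given no weight. The precursor gene Pmch, known for melanin-concentrating hormone of the hypothalamus, was not well above background in control. It reached 321 and 313 in processed intensity in Ro, at least 17.2-fold higher. Its bound is the Ro mean against the lowest signal called well above background on each control array. The washout arrays of Pmch disagreed, at 131 and at 5.4, the second not above background, and the spot lay in a region where dim spots were raised. Kiss1, the kisspeptin precursor and like Npvf a gene of RFamide peptides, was well above background on the Ro arrays only. It was at least 2.74-fold higher in Ro than in control and at least 1.81-fold lower in washout than in Ro. Cck, cholecystokinin, rose in Ro by 1.82 (limma adjusted p = 0.0034) and was 1.76 below control in washout (adjusted p = 0.018), with 1 of 2 washout arrays above background. Nppc, C-type natriuretic peptide, fell by 3.39 (adjusted p = 0.00023) and differed from control in washout by -0.29 (adjusted p = 0.29). Of this list 10 genes, Vip, Sst, Tac1 and Cartpt among them, were not well above background on any array.

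**Figure D5:**
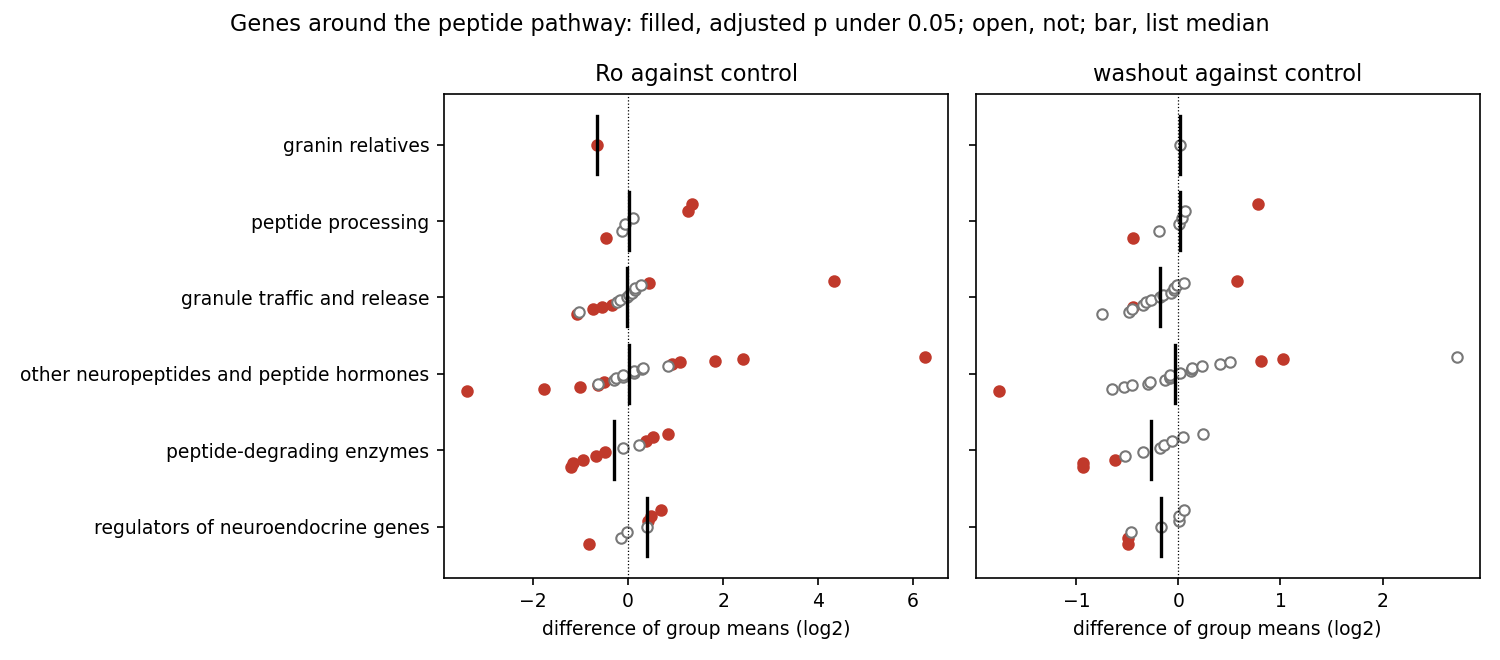
Difference of group means (log2) of each measured gene in 6 lists around the peptide pathway, for Ro against control and washout against control; filled points passed limma at an adjusted p under 0.05, open points did not, and the bar is the list median. In Ro, genes lie on both sides of 0 in the lists with more than 1 measured gene, and Cadps (4.33) and Pmch (6.26, a measured difference whose control level was not above background) lie farthest to the right.

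Of 10 listed receptors for the peptides of Npvf, Npy and Penk, 8 had a named probe, and those 8 were at the limit of the arrays. Of them 7 were not well above background on any array (Npffr2, Npy1r, Npy2r, Npy5r, Npy6r, Oprd1 and Oprk1), and Oprm1 was not kept by the filter. Npffr1 was not among the 8, so that nothing is known here of its level. Among 10 measured peptide-degrading enzymes 3 rose and 5 fell in Ro, with a median of -0.30, beside 42.1% of all features called. Ace, angiotensin-converting enzyme, fell by 1.20 (limma adjusted p = 0.00044) and was still 0.94 below control in washout (adjusted p = 0.0077). Mme, neprilysin, which cuts enkephalins, fell by 1.16 (adjusted p = 0.0018) and differed from control in washout by -0.06 (adjusted p = 0.77). Ece2 fell by 0.96 (adjusted p = 0.0032), and the peptidase Nln, neurolysin, rose by 0.83 (adjusted p = 0.00094).

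Rest, the repressor that keeps neuronal and granin genes low outside neurons, differed between Ro and control by 0.40 without passing the test (limma adjusted p = 0.073). Its corepressors Rcor1 and Rcor2 rose in Ro by 0.47 (adjusted p = 0.013) and 0.69 (adjusted p = 0.0034). In washout Rcor2 was 0.49 below control (adjusted p = 0.033). Creb3l1, a membrane-bound factor of secretory cells, fell in Ro by 0.82 (adjusted p = 0.045). Of 7 measured regulators 3 rose and 1 fell in Ro, beside 42.1% of all features called, with a median of 0.40 against 0.00 over all features.

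Genes with profiles most like those of the members were found as the 3 symbols with the smallest root mean square distance of gene-centred log2 levels over the 6 arrays, for members whose group means spanned at least 1 on the log2 scale. Nearest to Npvf were Pcp4, a calmodulin-binding protein (distance 0.221), Grm5, a glutamate receptor (0.271), and Cnmd, a cartilage glycoprotein (0.305). Nearest to Chgb were Syt15, of the synaptotagmin family (0.20), Cygb, cytoglobin (0.239), and Sox8, a transcription factor (0.267). The Cygb probe lay in a region of a slide where dim spots were raised. Syt15 differed by -3.00 between Ro and control and by -1.58 between washout and control, beside -3.40 and -1.78 for Chgb. Nearest to Npy were Rgs16, a regulator of G-protein signalling (0.074), the chemokine Pf4 (0.088) and Acot1, a thioesterase (0.089).

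Marker genes of other cell types also moved with the treatment, and in bulk samples fewer cells of a type and less RNA per cell cannot be told apart. Levels of the measured markers of a type were summed per array, in units of the array's 75th percentile. The brightest probes weigh most, so that a sum can follow 1 or 2 genes and is not a measure of cell number. Beside the marker counts here and below, 19.4% of all features were called higher and 22.7% lower in Ro against control. In washout against control 4.13% were called higher and 5.97% lower. For 11 of 12 neuron markers the sum was 16.2 and 16.7 in control, 9.86 and 10.4 in Ro, and 15.9 and 15.7 in washout. Of these 2 rose and 5 fell in Ro. Stmn2, a microtubule regulator, fell by 2.22 (limma adjusted p = 0.000178), and Tubb3, a neuronal tubulin, fell by 1.08 (adjusted p = 0.00101). The neurofilament gene Nefm rose by 2.24 (adjusted p = 0.000827). Its dim spot lay in a region where dim spots were raised on Ro 2 or a washout array, and no control array held such a region. Nefl was 2.34 higher in Ro, but was well above background on only 1 of 2 control arrays. Nefl passed the filter on dim probes only through Ro, so that its call is given no weight. Among markers of inhibitory neurons Slc32a1, Dlx5 and Dlx6 were not well above background on any array, while Gad1 rose in Ro by 2.29 and Dlx2 fell by 0.48. The sum over 3 of 8 such markers was 1.68 and 1.67 in control, 1.74 and 1.58 in Ro, and 2.08 and 2.15 in washout. Of the striatal neuron markers Drd1 was not well above background on any array, and the sum over the other 4 ranged from 1.26 to 1.53 over all arrays.

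The neuron sum had the order of Chgb and Npvf, control above washout above Ro, with washout close to control. In the astrocyte sum control and washout overlapped, both above Ro. The sums of several other marker lists were lowest in Ro. The sum over 4 measured oligodendrocyte precursor markers had the order of Chgb and Npvf: 24.2 and 24.5 in control, 6.05 and 6.04 in Ro, and 15.8 and 15.0 in washout. Most of it came from Olig1 and Olig2. All 4 markers fell in Ro, Olig1 by 2.05 and Olig2 by 2.04, and 3 were below control in washout, while Gpr17 was not well above background. The sum over 4 of 5 pericyte and smooth muscle markers had the same order: 249 and 277 in control, 79.8 and 79.4 in Ro, and 185 and 181 in washout. It was almost only Acta2, smooth muscle actin, at 7.92 and 8.08 on the log2 scale in control, 6.25 and 6.24 in Ro, and 7.48 and 7.44 in washout. Of the 4 markers 3 fell in Ro, Acta2 by 1.76 and Rgs5 by 1.25, and both of those were below control in washout, while Des was not well above background. For 4 ependymal markers the sum was 34.5 and 33.8 in control, 11.6 and 13.5 in Ro, and 41.1 and 38.2 in washout, with all 4 lower in Ro. For 7 of 8 microglia markers it was 7.81 and 7.67 in control, 4.93 and 6.34 in Ro, and 8.28 and 7.58 in washout, with 4 lower in Ro and P2ry12 not well above background. For 5 meningeal fibroblast markers it was 16.8 and 21.7 in control, 15.6 and 14.9 in Ro, and 9.98 and 10.2 in washout, where all 5 were below control. Other sums were higher in Ro than in control: the sum over 2 of 5 endothelial markers was 0.953 and 1.03 in control, 2.97 and 3.23 in Ro, and 1.01 and 1.11 in washout, with Kdr higher and Flt1 lower in Ro and Pecam1 not well above background. The sum over 4 of 5 oligodendrocyte markers was 7.71 and 6.93 in control, 8.47 and 10.2 in Ro, and 10.1 and 8.32 in washout, with 1 higher and 1 lower in Ro and Mog not well above background. The part of these cells in the levels of the granin and neuropeptide genes was not tested.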

How the data were processed

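Per the file headers, RNA labelled with Cy3 was read on one-colour arrays with Agilent Feature Extraction 10.5.1.1, while the submitters' processing notes give version 10.1. The deposited processed intensity had its background subtracted by that program, array by array, with no scaling across arrays. The authors' deposited value table holds a linear ratio per probe, centred by a rule not given in the sources used here; its direction and scale were checked against the scanner values (r = 0.993 to 0.997 over probes on each array), its array medians were 0.872 to 0.987, and it served as an alternative only. The median and background intensity served another alternative.

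Spots marked as outliers were left out, as were 106 probes with no other spot, and spots of a probe were averaged. From the log2 intensity the 75th percentile of the array was subtracted. A probe was kept if both arrays of any group had it well above background, probes were named by accession through the RefSeq table (25097 of 41174, 61.0%), and each gene was represented by its probe of highest mean, giving 20091 features. Differences were tested in limma 3.58.1 (R 4.3.3), by moderated two-sided tests, 1 mean per group over the 6 arrays, and Benjamini-Hochberg adjustment over all features at 0.05. The fit was tested on simulated data. Errors are standard errors from limma. The 8 genes, the lists and the alternatives were chosen with earlier results of these data known. Listed genes were named by a rule: up to 4 per list with the largest change past the threshold, and up to 2 per marker list. Pcsk1, Pcsk2, Rest, Slc1a3, Stmn2 and Tubb3, and the undetected genes, were named outside it. One gene that the rule names is not reported here. Regions with raised dim spots were those where the local median of dim spots exceeded the other arrays by 0.2 on the log2 scale. Alternatives changed background, scaling, filter, variance model, probe choice, arrays, pairing and values.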

Additional observations from a re-analysis of the deposited data

How the results depend on the processing

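Over 20 alternatives (19 for Scg3, whose probe drops out with the raised regions), Chga kept its calls in Ro against control (-0.83 to -0.55) and washout against Ro (0.54 to 0.77), as did Scg5 (-0.82 to -0.61 and 0.79 to 1.01), and Npy and Penk kept theirs in Ro against control (0.71 to 1.25 and 0.53 to 0.80). With no test, Npvf in Ro against control lay between -4.47 and -2.73, and Chgb between -3.46 and -3.27. The limma count of the 6 tested genes called in Ro against control was 4 under all of these alternatives. In both comparisons with washout the count rose from 2 to 3 with the normexp correction and with quantile normalization. It also rose to 3 in both when probes had to be well above background on all arrays. An intensity trend gave 3 in washout against control. In washout against Ro it was 2, against 4 with an intensity trend, and 2 to 5 when each array was left out in turn, with 5 without washout 2. In washout against control it was 2, against 0 with no filter on dim probes (3 at an unadjusted p under 0.05), where 32589 features were tested, and 0 to 3 when each array was left out, with 1 without control 1 and 0 without control 2 (3 at an unadjusted p under 0.05). Signs turned for 3 differences near 0 when an array was left out: Chga in washout against control, -0.109 to 0.089 over the left-out arrays, was 0.089 without control 1 and 0.031 without washout 2; Scg2 in Ro against control, -0.124 to 0.001, was 0.001 without Ro 2; and Scg2 in washout against Ro, -0.503 to 0.012, was 0.012 without washout 1.

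The labels do not say that a replicate number marks a shared preparation, and deviations of same-numbered arrays correlated across features at r = -0.119 between control and Ro, 0.0784 between control and washout and -0.111 between Ro and washout. With the replicate number as a block, 4, 2 and 2 of the 6 genes were called in the 3 comparisons, as without it. Over all features 34.3%, 34.5% and 3.81% were then called. An exchanged pairing of the Ro arrays, chosen after seeing the data, called 4, 3 and 3, beside 41.9%, 41.3% and 8.26% of all features.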
